A study of Homo sapiens with 14 samples.

Results

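Kinesins are motor proteins that walk along microtubules or take them apart, and this account follows their genes in HEK293T cells, a human embryonic kidney line that carries the SV40 large T antigen. The members were the protein-coding genes whose symbol is KIF or KIFC followed by a number and at most 1 letter. This rule found 42 of the 57820 genes in the tables, of which 20345 are protein-coding, and it used no measured value. The 42 were divided by their known work into 14 mitotic kinesins, 15 transport kinesins and 13 others.

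RNA was sequenced in 14 libraries that make 7 groups of 2. In the conversion experiment, 4 groups of cells or RNA crossed 24 h of 4-thiouridine (s4U), a uridine analogue that cells build into new RNA, with acrylonitrile, which was applied to the RNA after extraction and makes s4U read as cytosine. These groups were untreated, s4U alone, acrylonitrile alone, and s4U with acrylonitrile. The labels give 50 µM s4U for the s4U group, whereas for s4U with acrylonitrile the treatment label gives 500 µM and the protocol text 50 µM. In the other experiment 3 groups received 500 µM s4U for 1 h, with 0, 4 or 8 µM PDP (an analogue of pyridostatin that binds G-quadruplexes, folded structures of guanine-rich sequence) added 20 min earlier, and the RNA of all 3 was treated with acrylonitrile. The 0 µM group is the control of both PDP doses, so it carries s4U and acrylonitrile too. All groups are 1 cell line. The labels name replicates but not separate cultures, so the p-values below measure only the spread between these libraries, which may be technical.

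The conversion libraries held 6074118 to 17228999 fragments and the PDP libraries 9770956 to 22363992, with the control of the PDP set the shallowest of its 3 groups. The part of fragments assigned to genes was 90.6% in untreated RNA and 68.4% to 70.9% in the acrylonitrile groups of the conversion experiment. In the PDP set it was 82.57% and 82.99% in the control and 86.55% to 89.66% with PDP. Each of 5 genes known to be expressed in HEK293 cells (PAX2, LHX1, NEFL, NEFM, VIM) was detected in every library. Levels are in FPM, fragments per 1000000. In the conversion experiment the library size was scaled by TMM (trimmed mean of M values, which sets the bulk of genes to no change), and in the PDP set it was that of the authors, so the levels of the 2 experiments are not on 1 scale. A list of 6 liver genes summed to 13.2 to 13.9 TMM-scaled FPM in untreated RNA, 7.50 to 12.4 with s4U, 72.7 to 193 with acrylonitrile and 29.7 to 60.3 with both, and in the PDP set to 0.435 to 0.894 FPM. A list of 4 leukocyte genes stayed between 0.26 and 3.1 FPM on either scale. The liver sum moves with acrylonitrile, and its part in the results below was not tested.

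Mitotic kinesins build the spindle, hold and move chromosomes and complete cytokinesis, and most of them are made in G2 and mitosis. Their promoters often hold a cell-cycle genes homology region (CHR), a 6-base element through which the DREAM complex keeps them silent in resting cells. Transport kinesins carry vesicles, mitochondria, endosomes and cilium parts along microtubules, and several are best known from neurons. The third set holds kinesins of cilia and centrioles, atypical kinesins such as KIF26A that do not walk, and regulators of microtubule length.

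The CHR sites are shown because they separate the classes by sequence alone. A RefSeq table of promoters on GRCh38.p14, which reads from 250 bases before to 50 bases after each transcription start, matched 34 of the 42 kinesins. KIF5A, KIF13B, KIF19, KIF21B, KIF26B, KIF27, KIFC2 and KIFC3 had no entry. The letters TTTGAA and TTCGAA were searched on both strands, so that TTTGAA on the opposite strand reads TTCAAA, and TTCGAA is its own reverse complement. Either was present in 16.4% of the 35116 promoters in the table. Among kinesins it was present in 11 of 14 mitotic genes, 1 of 11 transport genes and 1 of 9 others. In the 30-base stretches below, read on the strand of the gene, capitals mark the element. In KIF20B another TTTGAA follows directly and is left in lower case.
KIF11, chr10:92593090-92593119, plus strand: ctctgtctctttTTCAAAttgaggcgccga
KIF14, chr1:200620733-200620762, minus strand: gcggggcgcccaTTCAAAttgcggccttct
KIF15, chr3:44761747-44761776, plus strand: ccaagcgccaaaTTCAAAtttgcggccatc
KIF18A, chr11:28108149-28108178, minus strand: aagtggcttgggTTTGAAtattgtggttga
KIF18B, chr17:44947754-44947783, minus strand: ccgcccggctaaTTTGAAcgcaaggcgccg
KIF20B, chr10:89701602-89701631, plus strand: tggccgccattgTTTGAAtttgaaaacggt
KIF22, chr16:29790712-29790741, plus strand: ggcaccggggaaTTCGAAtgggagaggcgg
KIF23, chr15:69414282-69414311, plus strand: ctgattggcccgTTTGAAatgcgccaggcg
KIF4A, chrX:70290058-70290087, plus strand: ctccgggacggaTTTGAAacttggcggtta
KIF4B, chr5:155013746-155013775, plus strand: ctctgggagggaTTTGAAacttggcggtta
KIFC1, chr6:33391815-33391844, plus strand: tggccgttggaaTTCAAAagtggcgggtgt
KIF24, chr9:34329250-34329279, minus strand: acagcgcgggcgTTCGAActggcgcttggc
KIF5B, chr10:32056548-32056577, minus strand: agtgcagtaaaaTTTGAAtctgcgaccccg

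KIF20A, KIF2B and KIF2C were the mitotic kinesins whose window lacked these letters. KIF24, a microtubule-depolymerising kinesin of centrioles, and KIF5B, the widely expressed heavy chain of kinesin-1, were the only genes outside the mitotic class that held them. KIF4B is a near copy of KIF4A, and both stretches share the element and the bases after it.

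The opposite division was seen for a G-quadruplex pattern, 4 runs of 3 or more G with loops of 1 to 7 bases on either strand. The study predicted such sites with this pattern and also used sites measured by sequencing (G4-seq), which were not used here. The pattern was present in 25% of all promoters. Among kinesins it was present in 2 of 14 mitotic genes, KIF22 and KIF4A, in 6 of 11 transport genes and in 5 of 9 others. The examples below, with the G of the runs in capitals, are from kinesins with fewer fragments counted as labelled under PDP. That count includes background mismatches, and for KIF1C it was near background.
KIF1C, chr17:4997927-4997949, opposite strand: GGGGcGGGagcgaGGGGcGGGGG
KIF26A, chr14:104138534-104138560, opposite strand: GGGcgcgctcGGGaggcgaGGGcGGGG
KIF7, chr15:89655481-89655513, same strand as the gene: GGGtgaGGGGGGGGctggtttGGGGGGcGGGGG
KIF22, chr16:29790698-29790721, same strand as the gene: GGGagaGGGGGcGGGGcaccGGGG
The last bases of the KIF22 stretch are the first bases of its CHR stretch above.

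Kinesin transcripts spanned a wide range of levels in untreated cells. KIF22, a chromokinesin that binds chromosome arms, was the most abundant per length, at 61.8 ± 0.147 FPKM (fragments per kilobase of the canonical transcript and per 1000000 fragments of the library, SD, n = 2). KIF1C, a carrier of vesicles and mRNA, followed at 37.0 ± 0.334 FPKM, and KIF18B, which trims astral microtubules, at 31.5 ± 0.457 FPKM. KIF2C at 25.3 ± 0.376 and KIF7 at 24.6 ± 0.715 FPKM were neighbours whose difference did not exceed their spread. At the other end KIF25 was at 0.436, KIF19 at 0.261 and KIF4B at 0.0192 FPKM, and KIF2B, a spindle depolymerase, had 0 fragments in every library, which allows up to 3 fragments in each. In the acrylonitrile-treated PDP control KIF1C at 85.4 ± 0.467 and KIF22 at 84.1 ± 1.44 FPKM led, and these did not differ beyond their spread.

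After 24 h of s4U, mitotic kinesins were higher and transport kinesins and the others were mostly lower. Without acrylonitrile, 9 of the 13 tested mitotic kinesins rose and none fell. Of 15 transport kinesins, 1 rose and 13 fell, and of the 13 others, 2 rose and 9 fell. The median log2 fold change was 0.86 for the mitotic class, −0.63 for the transport class and −1.37 for the others, against 0.02 over all genes. The test was edgeR's quasi-likelihood test on fragment counts with TMM scaling and an adjusted p under 0.05. Over all 18914 genes tested, 35.8% rose and 34.7% fell, so that mitotic kinesins rose and the other classes fell more often than genes at large. In bulk RNA, fewer cells of a kind and less RNA per cell cannot be told apart. The HEK293 genes moved beside the kinesins, with 4 of 5 lower with s4U, PAX2 by −2.64, NEFM by −2.18, LHX1 by −1.76 and NEFL by −1.44 on the log2 scale, and VIM at −0.15, which did not pass. Their summed level was 494 to 501 TMM-scaled FPM untreated and 237 to 384 with s4U. Their part in the falls of kinesins was not tested.

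**Figure D1:**
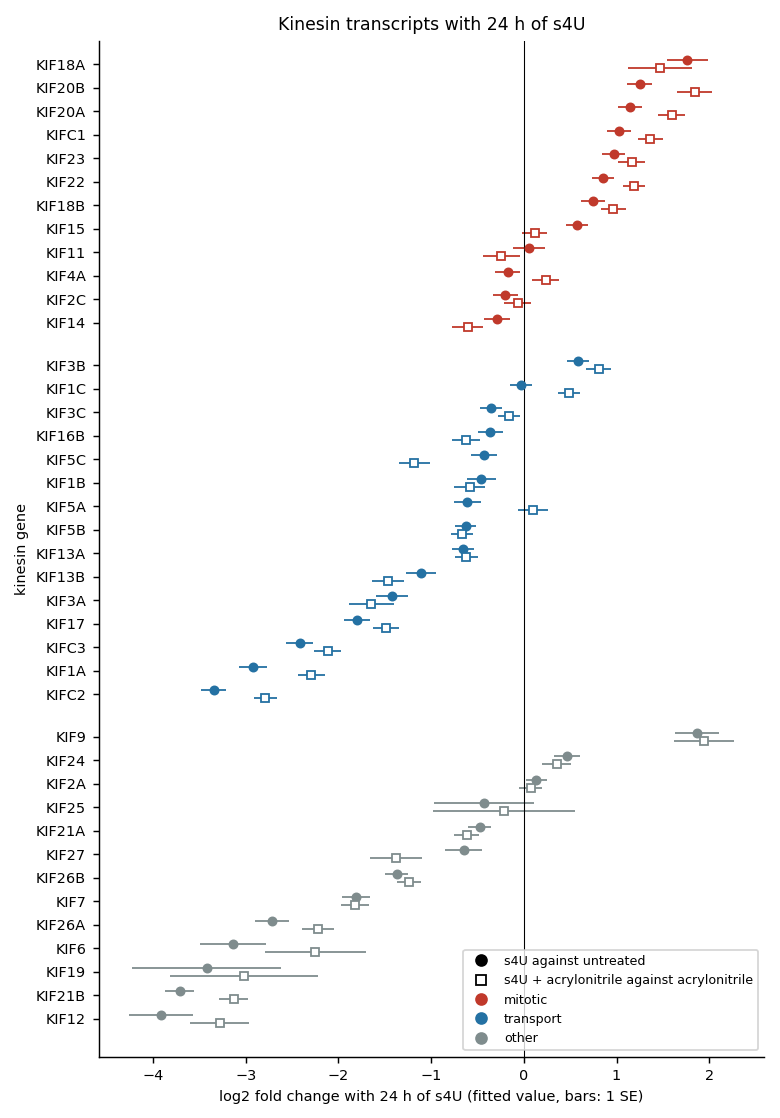
Log2 fold change of 40 kinesins with 24 h of s4U (KIF4B left out), by class, on the horizontal axis; circles are s4U against untreated, open squares s4U with acrylonitrile against acrylonitrile, and bars are 1 SE. Most mitotic kinesins lie to the right of 0 and most others to the left, from KIF9 at 1.87 to KIF12 at −3.91 without acrylonitrile.

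KIF18A, which steadies chromosomes at the metaphase plate, had the largest rise among mitotic kinesins with 100 or more fragments. Its TMM-scaled level was 11.9 and 12.7 FPM in the untreated libraries and 43.4 and 40.2 in the s4U libraries, a log2 fold change of 1.76 ± 0.22 (SE). The groups did not overlap.

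KIF20A and KIF20B act late in division, where KIF20A brings the chromosomal passenger complex to the central spindle. KIF20A stood at 41.2 and 42.0 FPM untreated and at 83.5 and 100.6 with s4U, a log2 fold change of 1.15 ± 0.13 (adjusted p = 2.41e-05). KIF20B went from 31.3 and 31.7 to 71.9 and 77.6, by 1.25 ± 0.14. For each, both s4U libraries were above both untreated ones.

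KIF23, the motor of centralspindlin, stood at 47.2 and 54.2 FPM untreated and at 92.0 and 106 with s4U. KIFC1, a minus-end motor that bundles spindle microtubules, stood at 20.5 and 24.3 and then at 44.1 and 47.3. KIF22 stood at 116 and 116 and then at 197 and 223. Their log2 fold changes were 0.97, 1.03 and 0.86, and the s4U and untreated libraries did not overlap. KIF18B (0.74) and KIF15 (0.57), which helps keep the spindle bipolar, rose by less. The span of KIF15 overlaps that of TMEM42 on the same strand, so its count may hold reads of that gene. Exons were not compared.

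Not every mitotic kinesin moved. KIF11, the motor that pushes spindle poles apart, had a log2 fold change of 0.06 ± 0.17, KIF4A of −0.18 ± 0.13, KIF2C of −0.20 ± 0.13 and KIF14, needed for cytokinesis, of −0.29 ± 0.14, and none of the 4 passed the test. KIF4B passed it with 0 and 2 fragments untreated and 16 and 38 with s4U, but reads of KIF4A may be assigned to it and its value is uncertain.

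The lowest adjusted p among the falls were those of KIFC2, KIF21B and KIF1A. KIF21B, which paces microtubule growth, stood at 43.0 and 45.3 FPM untreated and at 2.98 and 3.69 with s4U, a log2 fold change of −3.71 ± 0.16 (adjusted p = 1.59e-07). KIFC2, a minus-end motor, went from 51.6 and 51.4 to 4.63 and 5.43, by −3.35 ± 0.14. KIF1A, the carrier of synaptic vesicle precursors, went from 98.5 and 102.5 to 11.2 and 15.2, by −2.92 ± 0.15. In each, the s4U libraries were far below the untreated ones.

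KIF26A stood at 127 and 131 FPM untreated and at 15.8 and 23.2 with s4U. KIFC3, a minus-end motor of epithelial cells, stood at 31.5 and 31.4 and then at 5.73 and 6.00. KIF17, a dendritic and ciliary motor, went from 36.6 and 38.7 to 9.58 and 11.99. All 3 were lower in both s4U libraries, by −2.72, −2.42 and −1.80 on the log2 scale. KIF7, a regulator of Hedgehog signalling at the tip of the cilium, went from 103 and 99.1 to 32.1 and 25.7 (−1.81 ± 0.15). The largest falls included kinesins of low level, KIF12 at −3.91 ± 0.34, from 7.44 and 7.52 to 0.314 and 0.625 FPM, KIF19 at −3.42 ± 0.80 and KIF6 at −3.13 ± 0.36.

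Members of 1 family did not always move alike, although differences between genes were not tested. Of the kinesin-2 motors that serve intraflagellar transport, KIF3A fell (−1.42 ± 0.17) and KIF3B rose (0.59 ± 0.12), from 47.2 and 47.3 to 70.7 and 71.3. KIF3C, the alternative partner of KIF3A, fell by 0.36 on the log2 scale, and with a GC term in the fit this became 0.07. The kinesin-1 heavy chains fell together, at −0.61 for KIF5A, −0.63 for KIF5B and −0.43 for KIF5C. In the KIF1 family KIF1A fell steeply and KIF1B slightly (−0.46 ± 0.16), whereas KIF1C was at 266 and 262 untreated and 259 and 257 with s4U. KIF9, a ciliary kinesin, and KIF24 were the risers outside the mitotic and transport classes, at 1.87 ± 0.24 and 0.47 ± 0.14.

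**Figure D2:**
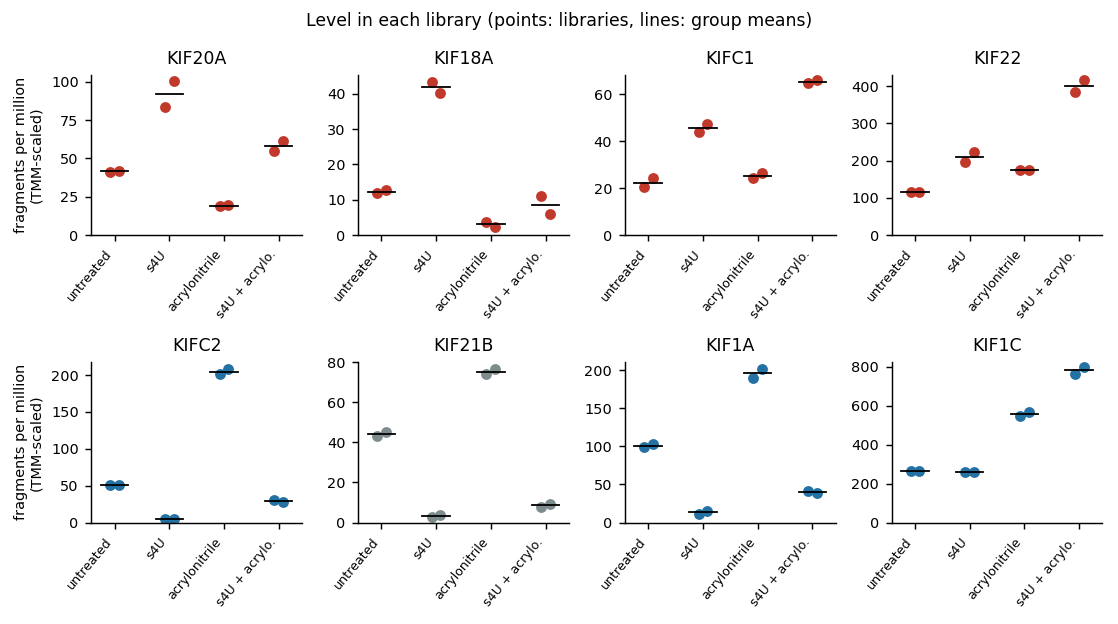
TMM-scaled FPM in each of the 8 conversion libraries for 8 kinesins, with points for libraries and lines for group means. KIF20A, KIF18A, KIFC1 and KIF22 are higher with s4U in both backgrounds, and KIFC2, KIF21B and KIF1A lower.

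In RNA treated with acrylonitrile the classes moved the same way. The comparison of s4U with acrylonitrile against acrylonitrile alone shares no library with the one above. Of the mitotic kinesins 8 rose and 1 fell, of the transport kinesins 2 rose and 11 fell, and of the others 1 rose and 9 fell, with medians of 1.16, −0.66 and −1.38 on the log2 scale against 0.05 over all genes. Over all genes 33.2% rose and 31.1% fell. Of the 41 kinesins tested in both comparisons, 37 had the same sign. The test was passed in both by 30, 10 up and 20 down, and none of these turned its sign. Of the HEK293 genes PAX2 (−2.88), LHX1 (−1.74), NEFM (−1.51) and NEFL (−0.97) fell here too and VIM rose (0.61), and their sum was 1013 to 1051 TMM-scaled FPM with acrylonitrile and 1021 to 1218 with s4U added. Of the 5 liver genes tested 4 were lower with s4U in this RNA and none without acrylonitrile. Their part was not tested.

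KIF20A stood at 18.8 and 19.7 FPM in acrylonitrile RNA and at 55.2 and 61.2 with s4U, a log2 fold change of 1.59 ± 0.15. KIFC1 stood at 24.3 and 26.6 and then at 64.7 and 66.2. KIF22 stood at 176 and 176 and then at 385 and 416. Each rise exceeded the spread between libraries, and the log2 fold changes of KIFC1 and KIF22 were 1.37 and 1.19.

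KIFC2 went from 201 and 208 FPM to 31.1 and 27.9 (−2.79 ± 0.12, adjusted p = 3.17e-07). KIF21B went from 74.0 and 76.5 to 7.99 and 9.24. KIF1A went from 190 and 201 to 40.9 and 39.0. These were again the 3 kinesins of lowest adjusted p. KIF26A fell from 544 and 579 to 111 and 130, KIFC3 from 90.7 and 87.4 to 18.2 and 23.0, and KIF7 from 269 and 287 to 70.6 and 86.9.

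KIF15, KIF24, KIF3C and KIF5A passed the test without acrylonitrile alone, and KIF1C and KIF14 with it alone. KIF1C stood at 547 and 568 in acrylonitrile RNA and at 763 and 797 with s4U (0.48 ± 0.12). KIF14 was lower, at −0.61 ± 0.16. KIF4B had 0 fragments in both acrylonitrile libraries and 5 and 11 with s4U, at least 3.74-fold higher against a floor of 3 fragments over the group.

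The difference between the s4U effects in the 2 backgrounds was tested by itself. None of the 41 kinesins passed, by edgeR or by DESeq2, against 1.64% of all genes by edgeR, and 9 of 41 kinesins were at an unadjusted p under 0.05, as were 3144 of the 18914 genes. KIF5C had the lowest adjusted p, 0.121, for a difference of −0.75 ± 0.22. KIF1C differed by 0.52 ± 0.17 and KIF1A by 0.63 ± 0.20. This result rests on single libraries, since 8 kinesins passed without the second s4U library (KIF1A, KIF1C, KIF5A, KIF5C, KIF20A, KIF22, KIF26A and KIFC2) and 2 passed without the first (KIF1C and KIF5C).

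The scaling bears on the counts of higher and lower kinesins. With library sizes of all fragments in place of TMM, 9 kinesins rose and 26 fell without acrylonitrile, and 10 rose and 22 fell with it, while the median over all genes shifted to −0.32 and −0.21. Of all 18914 genes 4810 then rose and 8057 fell without acrylonitrile, and 4686 rose and 6924 fell with it. On that scale 8 mitotic kinesins rose and 3 fell without acrylonitrile, since another scaling shifts every gene by about the same amount. The s4U effect also varied with the GC content of the transcript, with a Spearman rho of −0.50 without acrylonitrile and −0.42 with it over 41 kinesins, as a description over genes that share libraries. With a GC term for each library, 9 mitotic kinesins rose and 1 fell without acrylonitrile, 2 transport kinesins rose and 9 fell, and 2 others rose and 9 fell. Over all 18087 genes of that fit 8022 rose and 4999 fell, with a median of 0.29.

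Summed over a class, mitotic kinesins made up 664 to 683 TMM-scaled FPM in untreated RNA and 995 to 1095 with s4U. The transport class went from 1014 to 1022 down to 671 to 706, and the others from 538 to 545 down to 283 to 284. With acrylonitrile the mitotic sum went from 601 to 635 up to 1133 to 1180, the transport sum from 1546 to 1564 down to 1203 to 1213 and the sum of the others from 1074 to 1125 down to 330 to 355. In no class did the groups overlap.

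The promoter letters can be set beside these calls. Of the 12 kinesins that rose without acrylonitrile, all had a promoter entry, and 9 held a CHR element and 1 the G-quadruplex pattern. Of the 22 that fell, 14 had an entry, and 1 held a CHR element and 9 the pattern. Of the 7 that did not pass, 3 held a CHR element, which were KIF11, KIF14 and KIF4A, and 3 held the G-quadruplex pattern.

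Most partners of the mitotic kinesins rose too. Of 14 genes of the spindle and midbody, 12 rose and 1 fell without acrylonitrile, and 12 rose and none fell with it. BIRC5 (survivin, 2.03 on the log2 scale without acrylonitrile) and CDCA8 (borealin, 1.53) are subunits of the chromosomal passenger complex that KIF20A carries. AURKA, the spindle-pole kinase, rose by 1.70, and RACGAP1, the partner of KIF23 in centralspindlin, by 1.41.

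The light chains and adaptors of kinesin-1 and kinesin-2 were divided, with 3 of 13 higher and 7 lower without acrylonitrile and 3 higher and 5 lower with it. KLC4 rose (1.44) and KLC3 fell (−2.27), although both are kinesin light chains. SPAG9, a JNK scaffold that binds kinesin-1, fell by 1.01 on the log2 scale, and RHOT2, a mitochondrial anchor, by 0.89. Of 16 genes of cytoplasmic dynein and dynactin, the machinery of opposite direction, 7 rose and 3 fell, against 35.8% and 34.7% of all genes. DCTN6 rose by 2.22, and DYNC1I1, the neuronal intermediate chain, fell by 3.43 on the log2 scale. The kinesins that do not carry a KIF symbol were CENPE, the kinetochore motor, at 0.11, which did not pass, and STARD9, which fell (−0.65).

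With acrylonitrile alone, kinesin levels differed along with GC content. Between acrylonitrile and untreated RNA, neither of which had s4U, 12 of 41 kinesins were higher and 17 lower, against 29.1% and 30.7% of all genes. By class, 2 mitotic kinesins were higher and 9 lower, 6 transport kinesins were higher and 5 lower, and 4 others were higher and 3 lower. The log2 fold change followed GC content with a rho of 0.853 over 41 kinesins and 0.706 over 18087 genes, as a description. Here the treatment was of RNA and not of cells, and the untreated libraries are also those of the first s4U comparison. The acrylonitrile libraries were also shallower, at 7778685 and 6074118 fragments against 13102014 and 11860513, with a smaller part in genes. The reagent cannot be told apart from such differences. The paper reports that expression correlated well with and without acrylonitrile, a measure not computed here.

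KIF26A has the highest GC content of the kinesins, 68.6%, and stood at 127 and 131 FPM untreated and at 544 and 579 with acrylonitrile (2.12 ± 0.17). KIFC2, at 67.2% GC, went from 51.6 and 51.4 to 201 and 208 (1.99 ± 0.12). KIF20B, at 34.3% GC the lowest, went from 31.3 and 31.7 to 7.31 and 6.89 (−2.14 ± 0.18). The richest and the poorest kinesin thus moved in opposite directions. KIF2A, a depolymerase of spindle poles and axons, went from 111 and 118 to 51.4 and 48.5 at 37.7% GC, and KIF23 from 47.2 and 54.2 to 21.4 and 22.4 at 41.6% GC.

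KIF1C, at 54.9% GC, kept its difference with a GC term. It went from 266 and 262 to 547 and 568 FPM (1.08 ± 0.12), and with the term its log2 fold change was 1.03. In that fit 15 kinesins in place of 29 passed, 12 up and 3 down, and KIF26A and KIFC2 were at 0.64 each. Over all 18087 genes of that fit 5043 were higher and 1577 lower, with a median log2 fold change of 0.23. Without TMM the split was 5 higher and 25 lower, with the median of all genes at −0.76. Of all 18914 genes 2245 were higher and 9509 lower on that scale.

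**Figure D3:**
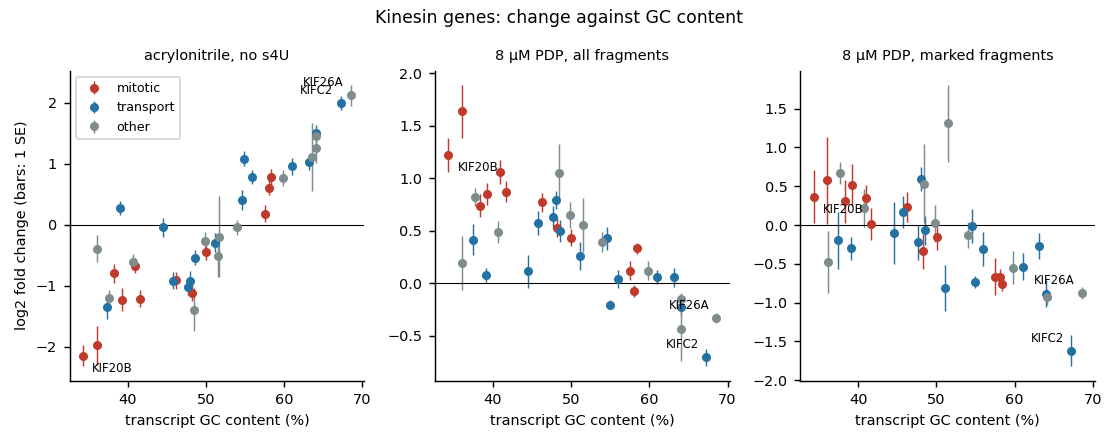
GC content of the canonical transcript in percent against log2 fold change for each kinesin, by class, for acrylonitrile against untreated RNA, 8 µM PDP in all RNA and 8 µM PDP in marked RNA (KIF4B left out). The points rise with GC content in the acrylonitrile panel and fall in both PDP panels.

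After 24 h of s4U most kinesin RNA carried the label. A fragment is called marked here when it holds at least 1 of the mismatches that the study counts, and the share is marked fragments over all fragments of a gene. With s4U and acrylonitrile, 34 kinesins had 20 or more fragments in each library, and their median share was 92.3%, against 91.4% over 12068 protein-coding genes. Over the same kinesins the share was 6.88% in untreated RNA, 11.6% with s4U alone and 8.39% with acrylonitrile alone.

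The mitotic class had a median marked share of 94.4% (n = 12 genes), the transport class 91.2% (n = 14) and the others 90.3% (n = 8). KIF20A was the most completely marked kinesin, at 99.1% and 98.4% in the 2 libraries. KIF5A, the neuronal kinesin-1 heavy chain, was at 98.0% and 97.1%, KIFC1 at 97.4% and 97.0%, and KIF24 at 97.3% and 95.7%. A share over 90% was reached by 24 of the 34.

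Under 80% there were 4 kinesins. KIF1C was at 61.2% and 58.7%, from 5827 and 4745 fragments, the deepest counts of any kinesin. KIF1A was at 62.5% and 59.5%, KIF21B at 73.8% and 58.2% from 61 and 55 fragments, and KIFC2 at 73.4% and 71.1%. KIF1A, KIF21B and KIFC2 were the kinesins of lowest adjusted p in the falls with s4U, and KIF1C was not among those that fell. Over the 34 kinesins the share went with the s4U effect in acrylonitrile RNA at a rho of 0.575 (r = 0.519), a description in which both measures come from the same libraries. Over 12068 genes the rho was 0.240. Replicate 1 had the higher share for 29 of 34 kinesins.

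The marked share after 1 h of s4U gives a half-life by the formula of the study, in which a larger new part means a shorter life. It was computed in the 2 PDP control libraries for 37 kinesins at 1 FPM or more. The median was 3.66 h, against 3.17 h over 12811 protein-coding genes. The mitotic median was 3.58 h, the transport median 3.83 h and that of the others 2.97 h. At 5 FPM or more the others, then 7 genes, had a median of 4.28 h, against 3.66 h and 3.83 h. With the marked share of acrylonitrile alone subtracted, the medians were 5.89 h, 6.92 h and 6.06 h over the 33 kinesins that still gave a value, and 6.92 h over all of these, so neither the level nor the order of the classes is settled. The difference between mitotic and transport kinesins, −0.25 h, was smaller than its range between libraries, from −0.53 to 0.08 h.

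KIF15 had the shortest half-life of the well-covered kinesins, 1.25 and 1.11 h, from 271 fragments. KIF27, a ciliary kinesin, was at 1.42 and 0.660 h from 51 fragments. KIF6 was at 2.24 and 1.21 h from 31 fragments and KIF18A at 2.41 and 1.94 h from 32 fragments. Few fragments thus stand behind 3 of the 4 shortest values.

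The longest half-lives were those of transport kinesins, although the mitotic class reached 6.17 h, close to KIFC2. KIF1C was at 7.87 and 6.69 h, KIF1A at 7.06 and 6.86 h, KIF3C at 5.05 and 8.34 h, and KIFC2 at 5.65 and 6.77 h. The formula takes every marked fragment as new, so background marking enters these values, and the share of KIF1C was near that background. In KIF1C 9.17% of fragments were marked (95% Wilson interval 8.70% to 9.66%, which covers counting error only), against 8.79% with acrylonitrile and no s4U. For 26 of 37 kinesins the interval lay above that of acrylonitrile alone, and for 11, KIF1C, KIF11, KIFC1 and KIF20A among them, it did not. For these 11 the intervals were not apart, which does not show that the shares were equal. The difference itself was not tested.

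KIF1A and KIFC2, whose 1 h share was above the background (9.49% against 6.84% and 10.7% against 4.63%), had a low 24 h share as well as a long half-life. Over 34 kinesins the 24 h share and the half-life had a rho of −0.299 (r = −0.496), against a rho of −0.477 over 11672 protein-coding genes, a description in which genes are not replicates. KIF20A had the highest 24 h share and a half-life of 4.58 and 5.36 h.

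**Figure D4:**
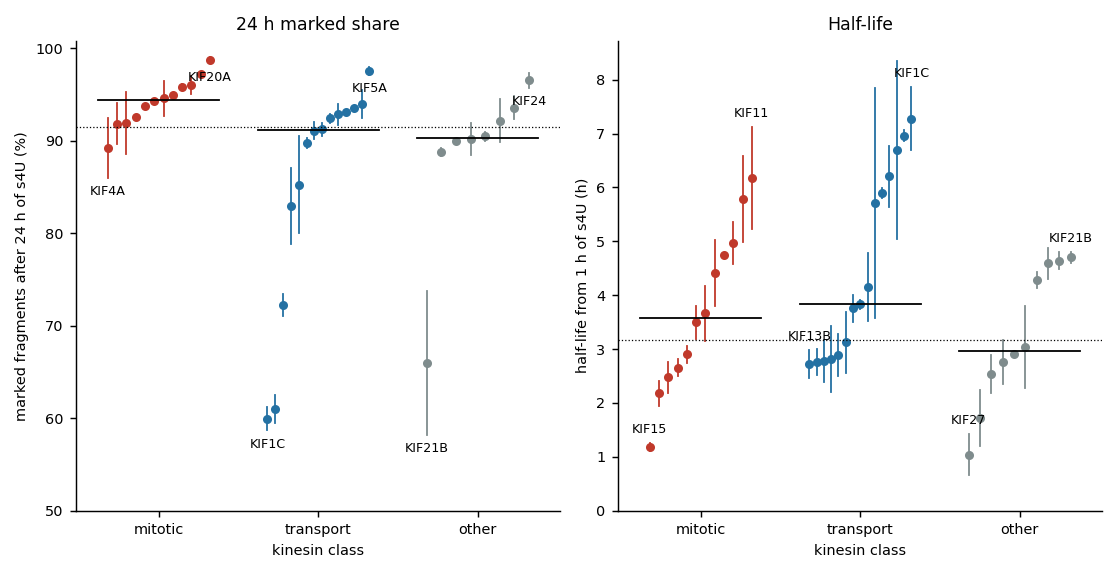
Marked share after 24 h of s4U with acrylonitrile in percent (axis from 50%) and half-life from 1 h of s4U in hours, for each kinesin by class; dots are means of 2 libraries, thin lines join the libraries, black lines are class medians and the dotted line the median of protein-coding genes. KIF1C and KIF1A are lowest in share, near 60%, and highest in half-life, near 7 h.

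In total RNA of PDP-treated cells kinesins were higher about as often as genes at large. At 8 µM, 21 of 38 tested kinesins rose and 5 fell, against 51.8% and 8.71% of all genes, and at 4 µM 24 rose and 3 fell, against 51.4% and 6.99%. These doses share the control libraries. The median of all genes was itself shifted, by 0.33 at 8 µM and 0.32 at 4 µM on the log2 scale. With TMM scaling, which removes this shift, 14 kinesins rose and 11 fell at 8 µM and 15 rose and 9 fell at 4 µM. Of all 15473 genes, 4143 rose and 4178 fell with TMM at 8 µM, and 3902 rose and 4049 fell at 4 µM. Changes are best read against the median of all genes.

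Mitotic kinesins stood above that median. At 8 µM 10 of 12 rose and none fell, with a median of 0.75, against 0.11 for the transport class, of which 6 of 15 rose and 3 fell, and 0.39 for the others, of which 5 of 11 rose and 2 fell. At 4 µM the mitotic median was 0.73 and 11 of 12 rose. With TMM 8 mitotic kinesins rose and 1 fell at 8 µM (median 0.45) and the transport median was −0.19. The control libraries had fewer fragments than the treated ones and a smaller part of them in genes. What either adds to these changes was not tested. With a GC term 13 kinesins passed at 8 µM, 6 mitotic ones up and 1 down, and the mitotic median was 0.19. Over all 14965 genes of that fit 2160 rose and 3729 fell, with a median of −0.027.

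KIF18A had the largest difference, 1.64 ± 0.25 on the log2 scale at 8 µM, from 1.23 and 1.89 FPM in the control to 5.10 and 4.68. The control values rest on 12 and 20 fragments. KIF20B went from 4.61 and 5.59 to 12.2 and 11.7 (1.22 ± 0.16), and through 10.6 and 11.5 at 4 µM. KIF15 went from 14.9 and 11.8 to 28.6 and 26.9 (1.06 ± 0.12), and KIF23 from 18.3 and 19.9 to 34.9 and 35.0 (0.87 ± 0.10). Treated and control libraries did not overlap in any of these.

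Among transport kinesins KIF1B, a carrier of mitochondria, rose from 36.0 and 40.1 to 68.2 and 63.6 FPM (0.79 ± 0.08, adjusted p = 9.83e-10). KIFC2 fell from 77.1 and 71.0 to 49.2 and 41.2 (−0.71 ± 0.09). KIF2A, of the others, rose from 34.3 and 38.9 to 63.4 and 66.2 but did not pass with a GC term, and KIF26A fell from 446 and 451 to 353 and 358. The span of KIF2A overlaps that of IPO11 on the same strand. KIF22 did not pass, at 173 and 177 in the control and 170 and 161 at 8 µM. Its log2 fold change of −0.08 ± 0.05 lay below the median of all genes, 0.33. GC content went with these differences at a rho of −0.749 over 38 kinesins.

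RNA marked within the hour of s4U gave another picture. Of 37 kinesins tested on marked fragments at 8 µM, 3 were higher and 11 lower, against 10.4% and 27.3% of all genes, a share lower near that of genes at large. At 4 µM 2 were higher and 8 lower, against 9.24% and 19.8%, and without the second control library 6 passed in all. By class at 8 µM, no mitotic kinesin was higher and 3 were lower (2 higher and 2 lower with TMM), 1 transport kinesin was higher and 5 lower, and 2 others were higher and 3 lower. The marked fragments include the background of mismatches described above.

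The 11 lower kinesins had 51.1% to 68.6% GC. KIFC2 had 8.90 and 6.91 marked FPM in the control, 3.06 and 4.08 at 4 µM and 2.42 and 2.72 at 8 µM, a log2 fold change of −1.62 ± 0.20 at 8 µM. KIF7 had 29.4 and 28.2, then 16.9 and 18.5, then 14.2 and 16.2 (−0.92 ± 0.10). KIF26A had 59.97 and 64.6, then 39.2 and 40.4, then 32.9 and 35.0 (−0.88 ± 0.08, adjusted p = 5.72e-23). In all 3 the values at 8 µM lay below those at 4 µM and both below the control, with no overlap.

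KIF1C had 56.8 and 66.8 marked FPM in the control, 43.9 and 43.0 at 4 µM and 35.6 and 38.9 at 8 µM (−0.74 ± 0.08). At 8 µM 795 of 13310 and 714 of 10605 of its fragments were marked, a smaller share than its 8.79% with acrylonitrile alone. KIF18B had 36.7 and 40.7, then 26.5 and 28.2, then 21.2 and 24.98 (−0.76 ± 0.09). KIF22 had 23.3 and 24.1, then 17.3 and 19.6, then 14 and 16.0 (−0.67 ± 0.11). KIF18B and KIF22 were thus the mitotic kinesins with the clearest fall in marked RNA, and in total RNA KIF18B was at 0.33 ± 0.05, the shift of all genes, and did not pass with TMM (0.03). KIFC3 (−0.88), KIF5A (−0.81), KIFC1 (−0.66), KIF21B (−0.55) and KIF1A (−0.54) were also lower at 8 µM. KIFC1 had 57 of 780 and 39 of 640 fragments marked at 8 µM, likewise under its share with acrylonitrile alone, 11.2%. What background adds to the falls of KIF1C and KIFC1 was not tested.

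KIF1B and KIF2A were higher in marked as in total RNA. KIF1B had 5.73 and 7.19 marked FPM in the control and 9.93 and 9.63 at 8 µM (0.59 ± 0.16), and KIF2A 7.37 and 8.14 and then 12.3 and 12.5 (0.67 ± 0.15). KIF9 passed at 8 µM, from 0.409 and 0.473 marked FPM to 0.850 and 1.42 (1.31 ± 0.50). Its control values rest on 4 and 5 marked fragments. By DESeq2 1 of the others, not 2, was higher at 8 µM.

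**Figure D5:**
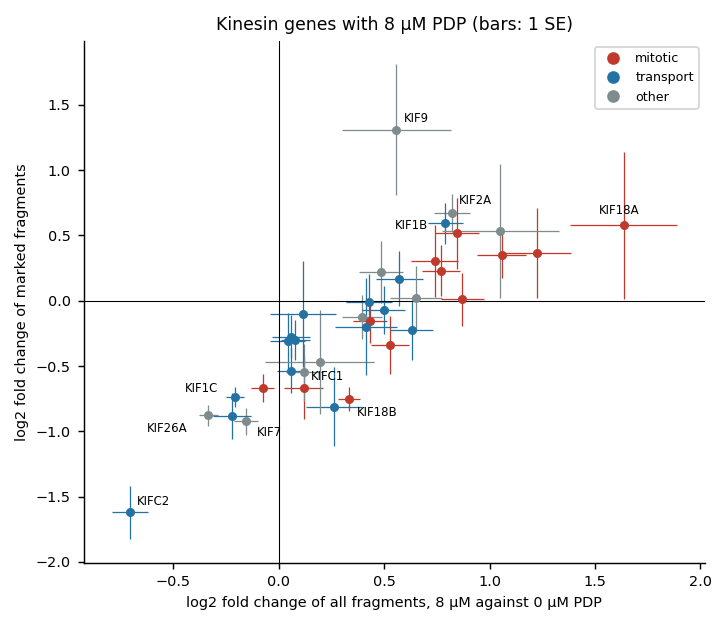
Log2 fold change with 8 µM PDP in all RNA on the horizontal axis and in marked RNA on the vertical axis, 1 point per kinesin, coloured by class. KIFC2 lies lowest at −0.71 and −1.62, and KIF18A farthest to the right at 1.64.

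GC content and promoter letters moved together with these calls. The rho of GC content with the log2 fold change in marked RNA was −0.691 at 8 µM and −0.519 at 4 µM over 37 kinesins. With a GC term 10 kinesins passed at 8 µM, 3 up and 7 down. Over all 13832 genes of that fit 1140 rose and 2380 fell, shares close to those of the kinesins. KIF1C was then at −0.57, KIFC2 at −0.95, KIF18B at −0.41, KIF7 and KIF22 at −0.34 each, and KIF26A, at −0.18, no longer passed. Of the 11 lower kinesins 7 had a promoter entry and 5 of these held the G-quadruplex pattern (KIF1A, KIF1C, KIF7, KIF22 and KIF26A). Of the 23 that did not pass, 20 had an entry and 5 held it, and of the 3 that were higher, all with an entry, KIF1B held it. The pattern was not tested apart from GC content.

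Of the partners, 8 of 13 light chains and adaptors were lower in marked RNA at 8 µM and 1 was higher, led by RHOT2 at −1.11. Of 14 spindle and midbody genes 2 were lower, INCENP and AURKB at −0.64 each, and none was higher. In total RNA 13 of the 14 rose and 1 fell, against 51.8% and 8.71% of all genes. Their median there was 0.64, against 0.33 over all genes. Of 15 dynein and dynactin genes tested in marked RNA, 2 were higher and 4 lower, near the 10.4% and 27.3% of all genes.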

How the data were processed

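The authors trimmed reads (cutadapt 1.18), removed rRNA reads with bowtie2, aligned to hg19 with HISAT2 2.1.0, dropped duplicates and known variants and counted by strand on GENCODE genes. The deposited tables hold counts of fragments per gene by number of mismatches, RPM values (there named FPM, fragments per 1000000 of the library) and half-lives in minutes. The half-lives were recomputed in hours with the 60 min formula and differed from the deposited ones by at most 8.88e-15 h.

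Genes were tested with edgeR 4.0.16 (R 4.3.3, quasi-likelihood, Benjamini-Hochberg adjusted p under 0.05), checked on simulated counts. The conversion fit held 4 groups and 18914 genes (filterByExpr, TMM). The PDP fits kept the authors' library sizes and held 15473 genes at 1 FPM or more for total RNA and 14236 at 0.5 FPM or more for marked RNA. GC content is that of the canonical transcript (GENCODE v44 on GRCh37), entered per library as a spline of 6 degrees of freedom. Any kinesin may be named, and values per library are given for up to 8 kinesins of lowest adjusted p in a comparison, for the 4 highest and lowest shares and half-lives and for chosen class members. The members, classes and partner lists were chosen with earlier results of these data known, so no p is given over a list. The replicate numbers did not pair the libraries. Deviations of same-numbered libraries correlated between −0.0252 and 0.0406.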

Additional observations from a re-analysis of the deposited data

How the results depend on the processing

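Every comparison was refitted with DESeq2 1.42.0, another scaling, no filter, a replicate block, a GC term for each library (for PDP a choice made after seeing the data) and without each library in turn, where a lone library is assumed to vary like the other groups. Leaving out 1 replicate number in all groups at once was not run for the fits, since it leaves no residual degrees of freedom. For named kinesins, 1148 values kept their direction and side of the threshold when 1 library was left out and 74 no longer passed. Under the other settings 868 kept both, 130 no longer passed and 16 turned sign. The cause was not tested.

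With the GC term KIF3C turned to 0.071 for s4U without acrylonitrile. For acrylonitrile alone 15 kinesins passed in place of 29, and KIF14 (0.51), KIF11 (0.018), KIF21A (0.54), KIF15 (0.46), KIF2A (0.16) and KIF3A (0.015) turned sign. The median over all genes was 0.23 in that fit, above the values of KIF11, KIF2A and KIF3A. For total RNA with PDP 13 passed in place of 26 at 8 µM and 12 in place of 27 at 4 µM, and KIF21A (−0.15 at 8 µM, −0.14 at 4 µM) and KIF3A (−0.30 and −0.14) turned sign. For marked RNA at 4 µM 6 passed in place of 10.

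Without TMM KIF22 turned to −0.088 for acrylonitrile alone. At 4 µM PDP in total RNA KIF21B and KIFC1 turned with TMM (−0.085 and −0.094) and with DESeq2 (−0.093 and −0.10). By DESeq2 9 kinesins in place of 14 passed in marked RNA at 8 µM and 6 in place of 10 at 4 µM, with DESeq2 splits in total RNA of 10 up and 10 down at 8 µM and 11 up and 7 down at 4 µM. Leaving out 1 library gave 6 to 10 at 4 µM in marked RNA. For the difference between the s4U effects no kinesin passed in the fit as reported, 2 passed without a filter (KIF1A and KIF1C), and leaving out 1 library gave 0 to 8.

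The mitotic minus transport difference in 24 h share was 3.26 percentage points, 2.92 to 3.94 in single libraries, 6.26 with 2 or more mismatches and 5.8 with the acrylonitrile share subtracted. The difference in half-life was −0.25 h, −0.53 to 0.08 h in single libraries, and −1.03 h with the background subtracted. With the replicate block the counts of kinesins called were 34 and 32 for s4U, 0 for their difference, 30 for acrylonitrile, 26 and 26 for total RNA with 8 and 4 µM PDP and 14 and 10 for marked RNA, and the block moved no count by over 1.5 times.

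Counts over all genes moved by over 1.5 times as follows. The GC term gave 6620 in place of 11303 for acrylonitrile, 5889 in place of 9359 and 5529 in place of 9027 for total RNA at 8 and 4 µM, and 3520 in place of 5371 and 2514 in place of 4128 for marked RNA. DESeq2 gave 2899 and 2052 for marked RNA. The control libraries left out in turn gave 2739 and 2597 for marked RNA at 4 µM. The difference between the s4U effects, 310 genes, was 480 by DESeq2, 175 without TMM, 1442 without a filter, and 11 to 3596 with 1 library left out.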
